A study of Mus musculus with 12 samples.

Results

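The comparison described here sets 2 mouse embryonic stem (ES) cell lines against each other in one medium: a line carrying a Dazl-GFP reporter and a line carrying a Stella-GFP reporter, both grown in DMEM with fetal bovine serum (FBS). It comprises 6 of the 12 arrays of the series, 3 for each line, chosen by their labels as the FBS arrays of days 0, 3 and 10 and paired by day. Both lines grew on feeder cells, mouse embryonic fibroblasts that had been γ-irradiated, and both received leukemia inhibitory factor (LIF). The other 6 arrays hold the same lines and days in serum-free B27N2 medium with LIF, the arm for which the labels name a MEK inhibitor (PD0325901) and a GSK3β inhibitor (Kenpaullone). Whether FBS cells of days 3 and 10 received these inhibitors is not stated in the labels, which also give neither the genetic background of the lines nor what sequence the reporters carry. Each line is a single line sampled on 3 days, so the p-values below measure the spread between days and not the spread between independently derived lines of either kind. Of 18767 autosomal genes named on the array, 15396 had a probe well above background on at least 3 of the 6 FBS arrays and were tested.

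ES cells are derived from the early embryo and can be kept in culture in a naive pluripotent state, held by LIF-STAT3 signalling and transcription factors such as Pou5f1, Nanog, Esrrb and the Krüppel-like factors. In serum some cells drift toward a later, primed state, marked by Fgf5 and Otx2. Dppa3 (Stella) protects methylation of the maternal genome in the early embryo, and Dazl is an RNA-binding protein of germ cells. ES cell lines may also differ in DNA sequence, in chromosome content and in the methylation of imprinted genes, which are expressed from one parental copy.

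The share of spots well above background on the 6 FBS arrays was 64.0% to 74.4%. It was higher in Dazl-GFP on each day, at 74.4%, 70.2% and 73.3% against 70.7%, 64.0% and 68.6% at days 0, 3 and 10. Whether this bears on genes above background in only 1 line was not tested. The 75th percentile of the processed signal was 454 to 947 intensity units, 947, 562 and 878 in Dazl-GFP against 825, 454 and 718. The levels below are log2 signals minus that percentile of the same array, so 0 is a bright probe and negative values are dimmer ones. The arrays lay on 3 slides. The 3 Dazl-GFP arrays and the Stella-GFP array of day 0 shared slide 1, whereas the Stella-GFP arrays of days 3 and 10 lay on slide 2, so of the 3 day pairs only that of day 0 was measured within a slide. All 7 ES cell markers examined (Pou5f1, Sox2, Nanog, Zfp42, Esrrb, Dppa5a and Tdgf1) were well above background on all 6 arrays, at levels of 2.34 to 8.89.

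In FBS, 168 of the 15396 genes (1.09%) differed between the lines at an adjusted p below 0.05 in limma with Benjamini-Hochberg adjustment. Of these, 77 (0.500%) were higher and 91 (0.591%) were lower in Dazl-GFP. All 168 had 1 sign on all 3 days, and 118 differed by at least 2-fold, 58 higher and 60 lower. The absolute log2 difference of the 168 genes ran from 0.73 to 4.08 with a median of 1.16, and the median SD of their 3 day differences was 0.26. In 120 of the 168 every array of one line lay above every array of the other, which was the case for 9.89% of all genes tested. The count rests on the arrays pooled in the test: it was 0 with the 6 FBS arrays alone (2353 genes at an unadjusted p under 0.05, against 3138 with all 12), 19 without the day 3 pair and 20 without the day 10 pair. Of the 168, 10 increases and 3 decreases were above background on all 3 arrays of the higher line and on none of the other, so they entered the test only through the line where they are high, and their p-values are given as a description only. In all, 26 of the 77 increases were not above background on every Stella-GFP array and needed Dazl-GFP arrays to pass the filter. Their p-values, and those of decreases not above background on every Dazl-GFP array, are likewise a description only.

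The gene with the largest increase was Nod1, which encodes a cytosolic sensor of bacterial peptidoglycan. Its levels in Dazl-GFP were 1.94, 3.10 and 3.65 at days 0, 3 and 10, and in Stella-GFP -1.61, -0.52 and -1.42. Every Dazl-GFP array lay far above every Stella-GFP array, by 4.08 ± 0.34 (SE, log2; limma adjusted p = 0.00937). Apoa2, an apolipoprotein of high-density lipoprotein, stood at -1.41, -1.98 and -2.71 in Dazl-GFP and at -5.30, -5.63 and -5.96 in Stella-GFP. The difference was 3.60 ± 0.22 (SE; limma adjusted p = 0.00307), and only 1 of the 3 Stella-GFP arrays measured the probe above background. Its size and p-value thus rest mostly on Stella-GFP values below background and are a description only. The chemokine gene Ccl27a had levels of -0.10, 0.58 and 0.38 in Dazl-GFP and of -2.82, -2.56 and -3.13 in Stella-GFP. It was above background on all 6 arrays, with a difference of 3.12 ± 0.18 (SE; limma adjusted p = 0.00307).

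Other increases varied in how steady they were over the days, and some came from dim probes. Rpgrip1, which encodes a ciliary protein of photoreceptors, stood at 1.55, 2.20 and 1.83 in Dazl-GFP against -0.57, -0.14 and -0.49 in Stella-GFP. Its day differences of 2.12, 2.34 and 2.32 spanned little, and a second probe of the gene gave 2.21 beside 2.26. Prim2, the large subunit of DNA primase, had levels of 1.95, 2.41 and 2.48 against 0.29, -0.42 and 0.02, a difference of 2.32 ± 0.24 (SE; limma adjusted p = 0.0191). Msln (mesothelin), Tesc (a calcium-binding protein), Pgpep1l and Tmc7 (a transmembrane channel-like protein) were higher by 2.08, 2.00, 2.68 and 2.16. Pgpep1l was above background on only 1 of the 3 Stella-GFP arrays, so its size rests mostly on Stella-GFP values below background. For Tmc7 the other probes disagreed, at 0.02 and 0.13, so its increase was seen by 1 of 3 probes. Afm, the vitamin E-binding plasma protein afamin, was well above background on all 3 Dazl-GFP arrays and on no Stella-GFP array, which makes it at least 3.05-fold higher (limma adjusted p = 0.039). Vgll4, a cofactor of TEAD transcription factors, was likewise at least 2.09-fold higher (limma adjusted p = 0.0169). The p-values of both rest on Stella-GFP values below background. Such a fold is a lower bound, the mean of the bright line against the other line's signals, each raised to the lowest signal above background on its array.

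Among the decreases, Plagl1, an imprinted gene for a zinc finger transcription factor, had levels of -3.51, -2.23 and 0.14 in Dazl-GFP and of 0.17, 1.28 and 2.63 in Stella-GFP. Levels were higher on the later days in both lines, and the lines stayed apart on each day, by -3.23 ± 0.27 (SE; limma adjusted p = 0.00937). A second probe of Plagl1 was lower on all 3 days too, but only by -0.69 (limma adjusted p = 0.146 among all probes). Apoc2, the activator of lipoprotein lipase, stood at -2.89, -2.48 and -2.14 in Dazl-GFP against -0.17, 0.82 and 1.17 in Stella-GFP. Its difference was -3.10 ± 0.20 (SE; limma adjusted p = 0.00307), in the opposite direction to the apolipoprotein gene Apoa2. Nsg2, a protein of neuronal endosomes, had levels of -3.05, -4.50 and -3.74 against 0.97, -1.11 and -1.05, a difference of -3.37 ± 0.51 (SE; limma adjusted p = 0.0415).

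Other large decreases came from probes that were dim in Dazl-GFP, and from brighter ones. Tmem45a2 was well above background on no Dazl-GFP array and on all 3 Stella-GFP arrays, at least 4.57-fold lower in Dazl-GFP (limma adjusted p = 0.00949). By the same bound the neuropeptide gene Npy was at least 5.02-fold lower (limma adjusted p = 0.00636) and the teneurin gene Tenm2 at least 2.84-fold lower (limma adjusted p = 0.0149), and the p-values of all 3 rest on Dazl-GFP values below background. With normexp background correction of the raw signals, these dim genes had log2 differences of 0.27 (Tmem45a2), 0.26 (Npy) and 0.58 (Tenm2) and were not called. With the far-off backgrounds of a few spots repaired, a setting chosen after seeing the data, they were -0.80, -0.80 and -0.46, and Tenm2 did not pass. The protocadherin gene Pcdh8 was lower by -2.66, the galectin gene Lgals3 by -1.92, the lipid kinase gene Pi4k2b by -1.89 and the epoxide hydrolase gene Ephx2 by -1.89. Ephx2 stood at 0.41, 1.36 and 1.00 in Dazl-GFP and at 1.87, 3.07 and 3.50 in Stella-GFP, without overlap.

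**Figure D1:**
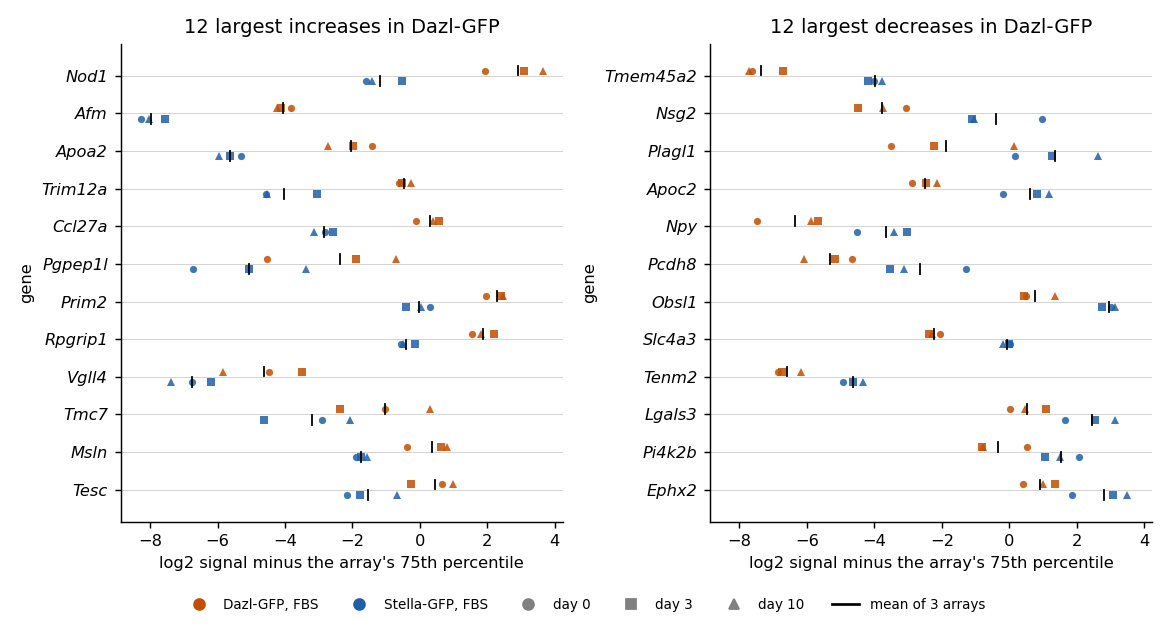
Levels of the 12 most increased (left) and 12 most decreased (right) named genes on the 6 FBS arrays, as log2 signal minus the 75th percentile of the array. Orange symbols are Dazl-GFP and blue symbols Stella-GFP, the shape gives the day and the black tick the mean of 3 arrays. The lines are apart on every day for each of the 24 genes, and only Pgpep1l and Tmc7 have arrays of the lines that overlap across days.

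The serum-free arrays measured the same lines with the same probes but with other RNA samples. The test pooled the spread of all 12 arrays, so a small spread of the serum-free day differences favoured a call in FBS. The serum-free arrays thus had a part in choosing the 168 genes, and the shares below are a description only. Of the 168 genes, 155 had a serum-free mean difference of the same sign and 147 (87.5%) kept that sign on all 3 serum-free days. Over all genes with 1 sign on the 3 FBS days, 31.1% kept it on the 3 serum-free days. In serum-free medium itself 56 genes (0.364%) passed, and 43 of them were among the 168, which is 76.8% of the serum-free calls and 25.6% of the FBS calls. Across genes, as a description, the 2 differences correlated at r = 0.87 over the 168 genes and at r = 0.33 over all 15396 tested. Each point shares its probe between the media. Nod1 differed by 3.88 in serum-free medium (limma adjusted p = 0.0106), Apoa2 by 5.16 (adjusted p = 0.00128) and Ccl27a by 3.26 (adjusted p = 0.00211). Plagl1 differed by -3.33 (adjusted p = 0.00853) and Apoc2 by -2.25 (adjusted p = 0.0106). Of the 12 most increased and 12 most decreased named genes, some did not pass there (limma adjusted p in parentheses). Among increases, Pgpep1l differed by 2.76 (0.0511), Msln by 1.54 (0.0753) and Tmc7 by 1.44 (0.142). Afm differed by 2.41 (0.151) and Vgll4 by 0.60 (0.308). Among decreases, Npy differed by -1.36 (0.0531), Lgals3 by -1.19 (0.109), Nsg2 by -2.03 (0.175) and Pcdh8 by -1.18 (0.284). All kept their FBS sign on each serum-free day, and the rest passed.

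No gene passed the test of the line by medium interaction at an adjusted p below 0.05 in limma, with 1640 genes at an unadjusted p under 0.05. Dim genes were counted apart from brighter ones. Of the 51 genes that were higher in Dazl-GFP and above background on all 3 Stella-GFP arrays, 44 kept their sign on all serum-free days. Of the 26 that were not above background on every Stella-GFP array, 15 did. Of the 91 decreases, 88 did. The genes with the opposite sign on all 3 serum-free days numbered 5, all increases in FBS: Lrch3, Serpinb11, Prr22, Olfr1189 and Zfp961, named after their values were seen. Each was dim in Stella-GFP, above background on at most 1 of its 3 FBS arrays. Zfp961, a KRAB zinc finger gene, differed by 1.87 in FBS and by -0.93 in serum-free medium, and its interaction had a limma adjusted p of 0.452.

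**Figure D2:**
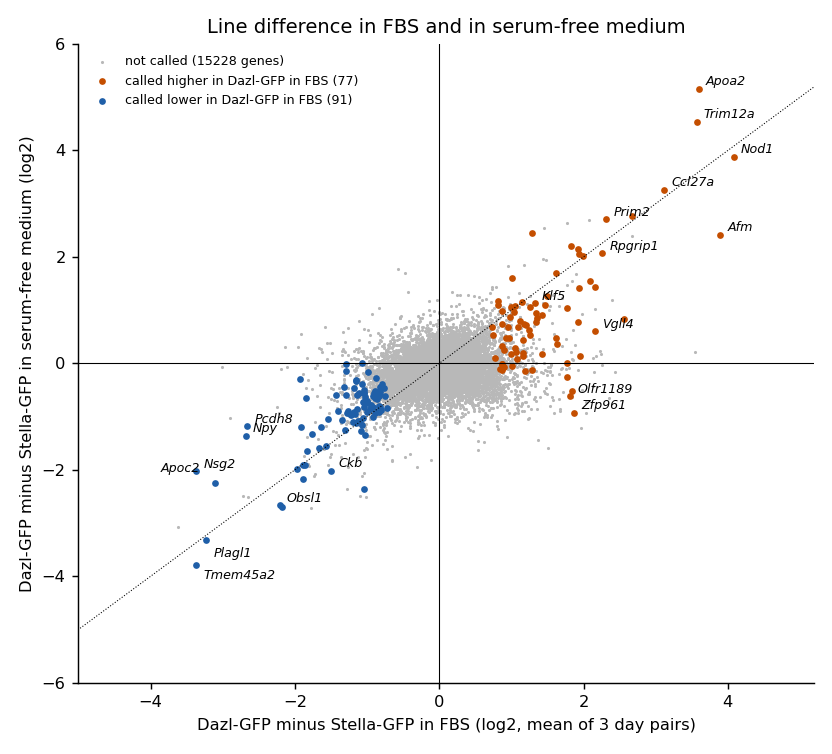
Difference between the lines in FBS (x) and in serum-free medium (y), both as Dazl-GFP minus Stella-GFP on the log2 scale and as means of 3 day pairs, for 15396 genes. Orange and blue points are the 77 and 91 genes called in FBS, grey points the other 15228, and the dotted line marks equal values; called genes lie mostly along it, with Zfp961 and Olfr1189 among those below 0 in serum-free medium.

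Some called genes lay side by side. Tested genes were put in the order of the RefSeq annotation, and a run was defined as at least 3 consecutive tested genes called in 1 direction. There were 2 runs. The longer one, on chromosome 12, held 6 genes that were lower in Dazl-GFP: Eif5 (a translation initiation factor), Mark3 (a microtubule-affinity kinase), Ckb (brain creatine kinase), Trmt61a (a tRNA methyltransferase), Bag5 (a co-chaperone) and Coa8 (a mitochondrial factor for cytochrome c oxidase). Their differences were -0.89, -1.23, -1.50, -1.16, -1.23 and -1.10. The next called genes beyond it, Xrcc3 (recombination repair) and Zfyve21, were neighbours of each other and lower by -0.91 and -1.0.

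The lower expression extended over 19 tested neighbours, from Cinp to Ppp1r13b, an interval set after the values were seen and so given without a test. In it 12 genes were called, all lower in Dazl-GFP, and 16 were lower on all 6 day pairs of both media. Of all genes tested 0.591% were called lower, and 4.44% to 9.09% per autosome other than 14 were lower on all 6 pairs. The median difference of the 19 genes was -0.86 in FBS, at -0.84, -0.78 and -0.81 on days 0, 3 and 10, and -0.83 in serum-free medium. Trmt61a shows the pattern array by array: its levels were 0.05, 0.81 and 0.18 in Dazl-GFP and 1.44, 1.92 and 1.16 in Stella-GFP. Bag5 stood at 1.00, 1.48 and 1.26 against 2.27, 2.87 and 2.28. Neither gene overlapped between the lines, and the fitted differences of -1.16 and -1.23 correspond to a signal 2.23-fold and 2.34-fold lower in Dazl-GFP. Other probes gave similar values for Eif5 (-1.10 and -0.90) and Cinp (-1.13 and -0.94 beside -0.83), whereas the probes of Mark3 ranged from -1.23 to -0.38. Traf3 (a signalling adaptor of the TNF receptor family) was lower by -0.86, Ankrd9 by -0.82 and the kinase gene Cdc42bpb by -0.73, and all 3 passed. Klc1 (kinesin light chain) and Rcor1 (a corepressor) did not pass, at -1.33 (limma adjusted p = 0.0754) and -0.67 (limma adjusted p = 0.0869).

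The ends of the interval were picked from the FBS values, so the flanks were bound to lie nearer 0 in FBS. The 12 tested genes before the interval had a median of -0.14 in FBS and -0.38 in serum-free medium, and the 12 after it had medians of -0.02 and -0.26. Zfp839, the gene next to Cinp outside the interval, differed by -0.21 in FBS (limma adjusted p = 0.402) and was lower by -1.17 in serum-free medium (limma adjusted p = 0.0303). Among the earlier ones are the imprinted genes Meg3, Rian and Mirg, and 9 tested genes lie between Mirg and Cinp. Mirg, a non-coding RNA that hosts miRNAs, was lower by -1.43 (limma adjusted p = 0.0363), Rian by -1.19 and Meg3 by -0.59, the latter 2 not passing. Ppp2r5c, Dync1h1 and Hsp90aa1, between them and the interval, differed by 0.17, -0.02 and 0.11. Over the autosomes, the median of 25 consecutive tested genes, taken in steps of 5, did not go below -0.32 outside chromosomes 12 and 14, nor above 0.36 anywhere.

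Bag5 and Coa8 are transcribed away from each other, and their promoter windows are shown because both genes were lower together. RefSeq (GRCm38.p6) gives windows of 250 bases before to 50 bases after a start, with 1 window for Coa8 and 2 for Bag5. The start of Coa8 lies 13 bases from that of the Bag5 window shown, and the windows share 112 bases. They are at chr12:111713019-111713318 on the plus strand (Coa8) and chr12:111713207-111713506 on the minus strand (Bag5), written 5′ to 3′ with each CG in capitals:
Coa8: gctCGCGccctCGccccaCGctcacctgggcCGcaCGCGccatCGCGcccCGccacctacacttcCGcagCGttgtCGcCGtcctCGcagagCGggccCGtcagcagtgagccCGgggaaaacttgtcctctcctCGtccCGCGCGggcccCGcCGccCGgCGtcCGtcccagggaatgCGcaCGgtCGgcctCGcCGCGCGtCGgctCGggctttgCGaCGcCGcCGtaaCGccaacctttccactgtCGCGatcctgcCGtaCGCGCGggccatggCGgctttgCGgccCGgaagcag
Bag5: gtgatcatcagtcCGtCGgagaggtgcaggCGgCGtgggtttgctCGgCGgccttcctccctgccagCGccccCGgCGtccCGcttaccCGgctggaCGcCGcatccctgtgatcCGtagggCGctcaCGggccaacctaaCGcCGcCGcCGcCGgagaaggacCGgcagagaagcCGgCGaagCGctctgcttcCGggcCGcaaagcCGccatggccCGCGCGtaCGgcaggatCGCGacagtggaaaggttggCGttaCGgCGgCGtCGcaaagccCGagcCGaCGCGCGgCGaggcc
The Coa8 window holds 50 CG pairs and the Bag5 window 45. At least as many were found in 0.879% and 2.00% of the 31396 autosomal windows, whose median is 7, so both genes start in a CpG-rich stretch. CG reads the same on both strands, and methylation was not measured here.

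**Figure D3:**
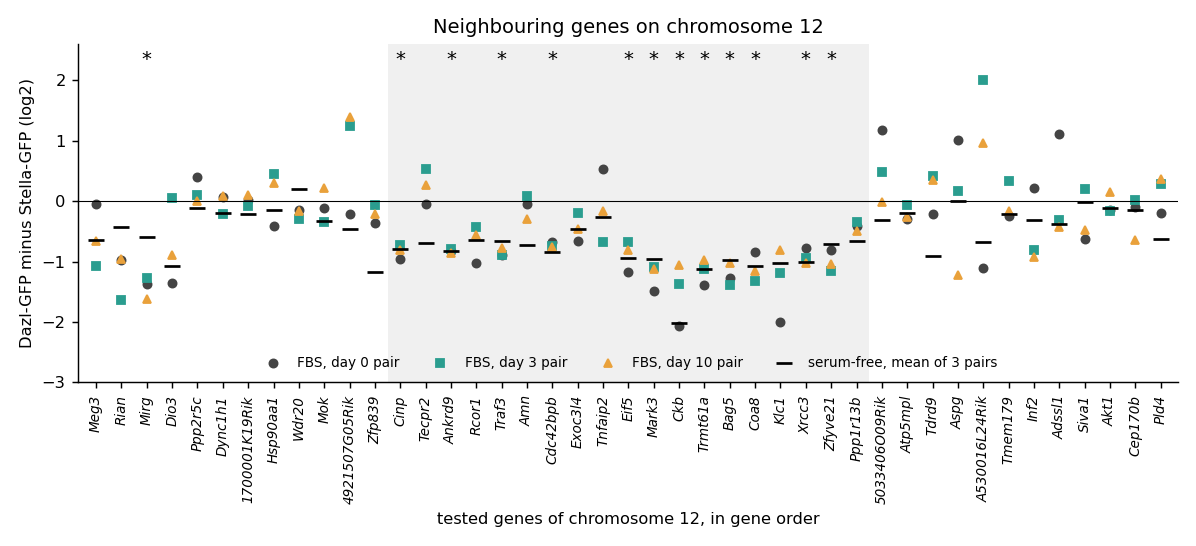
Difference between the lines (log2) for 43 tested genes of chromosome 12 in gene order, for the 3 day pairs in FBS (symbols) and the mean of the 3 serum-free pairs (black dashes). The grey band holds the 19 genes from Cinp to Ppp1r13b, with a median of -0.86 in FBS, and asterisks mark genes called in FBS; Meg3, Rian and Mirg before the band are at -0.59, -1.19 and -1.43 in FBS, and Zfp839 next to it is at -1.17 in serum-free medium.

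The other run held 3 neighbouring TRIM genes of chromosome 7, which encode E3 ubiquitin ligases of a family with antiviral members. All were higher in Dazl-GFP. Trim12a stood at -0.64, -0.52 and -0.26 in Dazl-GFP and at -4.56, -3.04 and -4.53 in Stella-GFP, a difference of 3.57 ± 0.50 (SE; limma adjusted p = 0.0363). Its second probe gave 4.52, but was above background on no Stella-GFP array. Trim34a was higher by 1.62 and Trim6 by 0.87, but their probes disagreed. The other probes of Trim34a gave 0.16 and 0.87, and those of Trim6 ran from -0.21 to 0.99. The increase of the run thus rests on Trim12a and on some of the probes of its neighbours. Other TRIM genes, named after their values were seen, were called lower. They were Trim21 of chromosome 7 at -0.88 (limma adjusted p = 0.0421) and Trim36 of chromosome 18 at -1.11 (limma adjusted p = 0.0469). On chromosome 1, Obsl1 (a cytoskeletal adaptor) and Slc4a3 (an anion exchanger), with 2 tested genes between them, were both strongly lower. Obsl1 had levels of 0.49, 0.43 and 1.35 against 3.01, 2.75 and 3.14, a difference of -2.21 ± 0.16 (SE; limma adjusted p = 0.00636), and its other probes gave -1.97 and -2.30. Slc4a3 stood at -2.04, -2.38 and -2.28 against 0.02, -0.01 and -0.20. Its other probe gave -3.20 beside -2.17, but was above background on no Dazl-GFP array.

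Chromosome 14 stood apart from the other autosomes. The median difference over its 535 tested genes was -0.28, lower in Dazl-GFP, whereas those of the 18 other autosomes lay between -0.04 and 0.01. It was -0.26, -0.32 and -0.25 on days 0, 3 and 10, below the lowest of the other autosomes on every day (-0.13, 0.00 and -0.07). In serum-free medium it was -0.36, -0.34 and -0.12 on the 3 days, against at lowest -0.14, -0.08 and 0.02 elsewhere. On all 3 FBS days 48.4% of its genes were lower in Dazl-GFP, against 20.1% to 25.6% per chromosome elsewhere, and on all 6 day pairs of both media 31.6%, against 4.44% to 9.09%. Over its 266 genes with a mean level above 0 the median was -0.39 in FBS, and the other autosomes had -0.11 to -0.04. The shift ran along the whole chromosome: in 5 stretches of 107 genes each, in gene order, the medians were -0.30, -0.22, -0.20, -0.37 and -0.32.

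Single genes of chromosome 14 did not all follow the shift. Of its 15 called genes, 12 were lower in Dazl-GFP and 3 higher, which is 2.80% of its tested genes, against 1.03% of all others. The share called on single other autosomes ran from 0.158% to 3.06%, the latter on chromosome 12, so that of chromosome 14 lay within their range. The lower ones include Pcdh8, Lgals3 and Ephx2 and, named after their values were seen, Dock5 (a guanine nucleotide exchange factor) at -1.14, Lpar6 (a lysophosphatidic acid receptor) at -1.04 and Dpysl2 (a neuronal cytoskeletal protein) at -0.95. Other probes gave -0.42, -0.63 and -0.47 for Dock5, -0.98 for Lpar6 and -0.19 for Dpysl2. The higher ones were Rpgrip1, Klf5 and B930095G15Rik, at 2.26, 1.33 and 1.24. Micu2, a regulator of the mitochondrial calcium uniporter, was lower by -1.08 in the probe used and by 0.00 in another. Outside chromosome 14 and the interval on chromosome 12, 141 of 14842 genes were called, 74 higher and 67 lower. Copy number was not measured here, and a level of a whole chromosome read through a median cannot tell a difference in all cells from one in some of them.

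**Figure D4:**
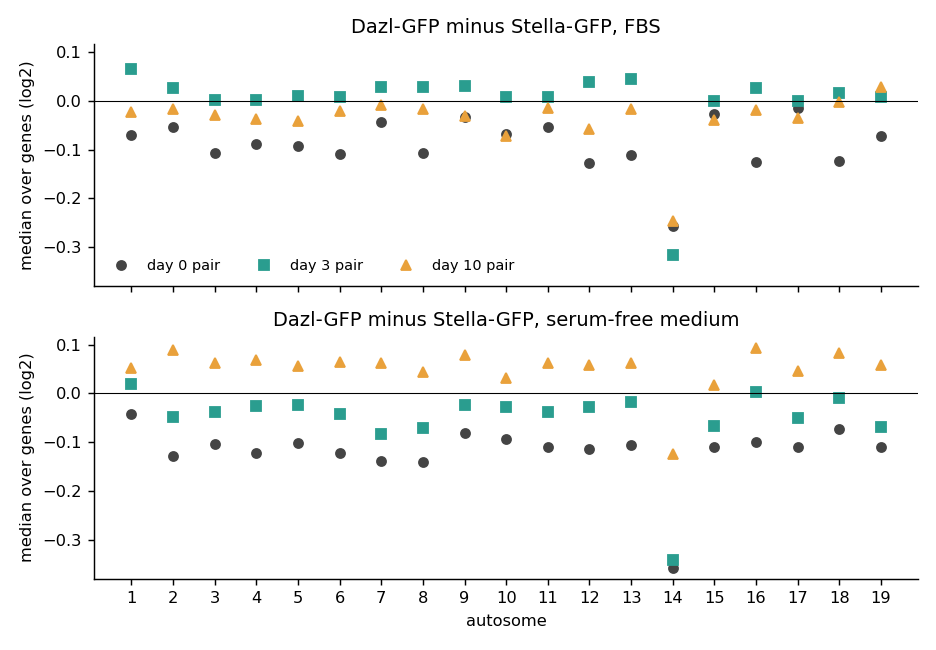
Median difference between the lines (log2, Dazl-GFP minus Stella-GFP) over the tested genes of each autosome, for the day 0, day 3 and day 10 pairs in FBS (top) and in serum-free medium (bottom). Chromosome 14 lies below all others on each of the 6 day pairs, at -0.26, -0.32 and -0.25 in FBS.

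The genes of pluripotency differed in few members. Of 12 naive pluripotency genes tested, 1 was called higher and 1 lower, and 10 did not pass. Over all genes tested 1.09% were called, and single calls in this and the following short lists are read as single genes. The median was 0.34, against -0.02 over all genes tested. Klf5, a Krüppel-like factor of naive cells, stood at 3.79, 3.52 and 4.08 in Dazl-GFP and at 2.24, 2.46 and 2.71 in Stella-GFP. It was higher by 1.33 ± 0.15 (SE; limma adjusted p = 0.0258), without overlap and against the shift of its own chromosome 14. Zfp42 (Rex1), a zinc finger marker of naive cells, was lower by -0.85 ± 0.11 (SE; limma adjusted p = 0.0363), at 5.62, 6.32 and 6.62 against 6.44, 7.27 and 7.40. The arrays overlap across days, though not within any day, and a second probe gave -0.85 again. Tfcp2l1 differed by 0.92 and did not pass (limma adjusted p = 0.107).

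Nanog and Pou5f1 did not pass. Nanog stood at 2.45, 3.25 and 4.10 in Dazl-GFP against 2.34, 3.26 and 3.62, a difference of 0.19 ± 0.15 (SE; limma adjusted p = 0.473). Pou5f1 was lower in Dazl-GFP on day 0, by -0.54, and higher on days 3 and 10, by 1.08 and 0.47. None of the 11 general pluripotency genes was called, and their median was -0.20. Of 11 primed and formative genes 1 was called, Fgf5, a growth factor that appears as cells leave the naive state. It stood at -0.90, -2.46 and -4.16 in Dazl-GFP and at 1.68, -1.31 and -2.40 in Stella-GFP, lower by -1.83 ± 0.27 (SE; limma adjusted p = 0.0391). The other 10 did not pass. All 11 fitted differences of that list were below 0, against 52.9% of all genes tested, and 7 of the 11 had a difference below 0 on all 3 days, against 23.9% of all. The median was -0.64. Of 7 Nodal targets 1 was called, beside 1.09% of all genes, the Nodal co-receptor Tdgf1, lower by -0.92 ± 0.14 (SE; limma adjusted p = 0.0403).

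Germ cell genes bear on the names of the reporters. Dazl itself was higher on every array of the Dazl-GFP line, at -0.79, 0.18 and 3.19 against -1.94, -2.61 and -0.88 in Stella-GFP. Its day differences of 1.15, 2.79 and 4.07 spread widely, and the mean of 2.67 ± 0.52 (SE) did not pass (limma adjusted p = 0.0743). Whether the probe reads the reporter as well as the gene cannot be told apart from these files. Dppa3 (Stella) had levels of 2.16, 4.99 and 3.54 in Dazl-GFP and of 2.39, 4.96 and 2.37 in Stella-GFP, a difference of 0.32 ± 0.32 (SE; limma adjusted p = 0.577). Its day differences in FBS were -0.24, 0.04 and 1.17, with no common sign. In serum-free medium they were -1.59, -0.84 and -0.37, each with the Stella-GFP line at the higher level, and the mean of -0.93 did not pass (limma adjusted p = 0.295). Dazl differed there by 1.67, 2.32 and 3.18, and its mean of 2.39 did not pass either (limma adjusted p = 0.134). Of 21 germ cell genes tested, 1 was called, where 1.09% of all genes were: Nanos3, a translational repressor of primordial germ cells, lower by -1.67 ± 0.25 (SE; limma adjusted p = 0.0415). Its levels were -4.09, -2.02 and -4.05 against -1.88, -0.62 and -2.64. The median of the list was 0.16.

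The genes of DNA methylation showed no call among 14 tested, with a median of -0.16. Tet1, Tet2 and Tet3, which oxidise methylated cytosine, differed by 0.29, 0.48 and -0.44 (limma adjusted p = 0.338, 0.128 and 0.413). Tet2 was higher on each FBS day, by 0.24, 0.61 and 0.58, yet the lines overlapped across days. The methyltransferase gene Dnmt3b differed by -0.82 (limma adjusted p = 0.146). Of 6 genes of the 2-cell stage program, none was called. Their median was -1.10, the lowest of the 30 lists, at -2.92 on day 0, -0.20 on day 3 and -0.59 on day 10. Zscan4c differed by -5.17 on day 0, by -0.78 on day 3 and by -2.00 on day 10 (limma adjusted p = 0.127).

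Of 20 imprinted genes tested, 2 were called, Plagl1 and Mirg, both lower, and 18 did not pass, beside 1.09% called of all genes tested. The fitted difference was below 0 in 15 of the 20, against 52.9% of all genes tested, with a median of -0.38. Levels of Mirg were -2.18, -4.01 and -3.68 in Dazl-GFP and -0.80, -2.73 and -2.06 in Stella-GFP, so the day moved both lines and left them apart. Mest, a paternally expressed gene, differed by -1.05 (limma adjusted p = 0.0664). Nnat differed by -2.72 (limma adjusted p = 0.0924), with no value for day 0 in the Dazl-GFP line, where its spot was irregular. Snrpn, Igf2r and Sgce differed by -0.06, 0.03 and 0.02.

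Genes known to vary between inbred strains were tested in 10 members, because the labels give no strain. Trim12a was called higher, and Glo1 (glyoxalase) and Nnt (the mitochondrial transhydrogenase) were called lower, beside 1.09% called of all genes tested. Glo1 stood at 3.46, 3.99 and 3.85 against 4.32, 4.69 and 4.77 (difference -0.83, limma adjusted p = 0.0452). Nnt stood at 0.85, 0.65 and 0.97 against 1.79, 1.21 and 1.75 (difference -0.76, limma adjusted p = 0.0489), with other probes at -0.79, -0.60 and -0.21. The median of the 10 genes was 0.03, and the strain of either line was not tested. In the serum response list, 2 of 18 genes were called, against 1.09% of all genes tested, and both were lower in Dazl-GFP. Myl9, a myosin light chain, was lower by -1.30 (limma adjusted p = 0.0284) and Ankrd1, a muscle ankyrin repeat protein, by -0.99 (limma adjusted p = 0.0284). The other 16 did not pass. The median of the list was -0.51 in FBS and -0.07 in serum-free medium, and 13 of the 18 genes had a difference below 0 on all 3 FBS days, against 23.9% of all genes tested. The median of the feeder fibroblast markers was 0.50, -0.77 and -0.54 on days 0, 3 and 10, beside -0.46, -0.49 and -0.50 for the serum response list.

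The remaining lists had no call apart from Zfp42, which is also 1 of 8 zinc finger cluster and KRAB repressor genes tested. They were the targets of MEK-ERK, LIF-STAT3, Wnt, BMP, ATF4, p53 and retinoid signalling, the genes of primitive endoderm, mesendoderm, neuroectoderm and trophoblast, interferon response, MHC class I, glutathione transferases, glycolysis, sterol synthesis and cell division. Their medians ran from -0.73 (mesendoderm) to 0.38 (ATF4 targets). Of the 14 ATF4 targets tested, which serve amino acid synthesis and stress, 13 had a fitted difference above 0, against 47.1% of all genes tested, with Mthfd2 highest at 0.99 (limma adjusted p = 0.0882). Of 20 interferon response genes 13 had one below 0, against 52.9% of all, with Oasl2 at -1.85 (limma adjusted p = 0.0777) and Irgm1 at -1.64 (limma adjusted p = 0.0611), while the neighbouring TRIM genes above were higher.

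**Figure D5:**
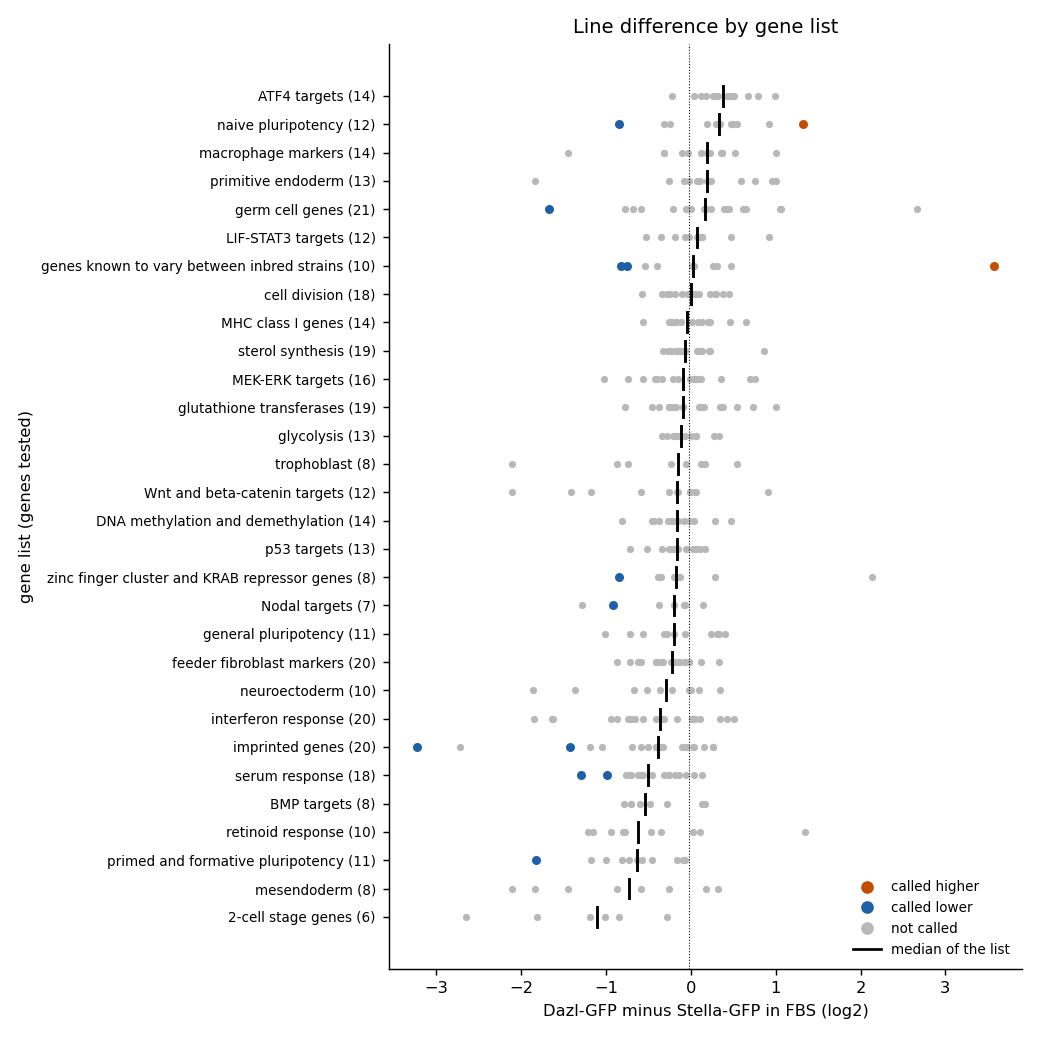
Difference between the lines in FBS (log2) of each tested gene in 30 gene lists, with the number of genes tested in parentheses. Grey points did not pass, orange and blue points were called higher or lower in Dazl-GFP, black bars are list medians and the dotted line is the median of all genes tested at -0.02; the lists range from -1.10 (2-cell stage genes) to 0.38 (ATF4 targets).

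Feeder cells share the dishes with both lines, so their markers were examined. Of 20 feeder fibroblast markers tested, none was called and the median difference was -0.22. The fitted difference was below 0 in 18 of the 20, against 52.9% of all genes tested. It was below 0 on all 3 days in 4, against 23.9% of all. The summed linear level of the 20 markers was 88.0, 109 and 81.7 times the 75th percentile in Dazl-GFP at days 0, 3 and 10, and 94.9, 176 and 116 in Stella-GFP, with all 20 above background on each array. The 14 macrophage markers summed to 9.47, 6.48 and 3.42 in Dazl-GFP and to 3.38, 10.5 and 2.99 in Stella-GFP, and neither line was higher on every day. With the fibroblast level as a covariate, 1095 genes were called in place of 168, all 168 among them. That level was taken from the same arrays, and the fit had 3 residual degrees of freedom. A part of feeder cells in the calls was not tested. In these bulk samples, fewer cells of a type and less RNA per cell cannot be told apart.

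The slide was not balanced over the lines. With the slide as a block, the fitted FBS difference is that of the day 0 pair alone. That fit called 136 genes (64 higher and 72 lower), 24 of them among the 168. The day 0 difference, itself part of the mean that chose the 168 genes, was at least 0.5 of that mean in all of them. Genes with a day 0 difference within 0.25 of 0 but differences of at least 2-fold in 1 direction on both days 3 and 10, the pairs that cross slides, numbered 163. The corresponding numbers were 22 for day 3 and 7 for day 10 as the pair near 0. In FBS the pairs that cross slides are also those of the later days, so slide and day cannot be told apart in these counts. Among the 168 genes, 64 had another measured probe. Of the 88 other probes, 59 had the same sign on all 3 days, 27 were called in the same direction, and 10 had a fitted difference of the opposite sign.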

How the data were processed

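RNA was measured on 12 single-colour Agilent arrays (Cy3, per the labels), and the 6 FBS arrays carry the comparison. The deposited processed signal is an intensity per spot, background-subtracted and detrended by Agilent Feature Extraction per the file headers; raw mean and background intensities and the marks of spots above background were deposited beside it. The ratio values of the authors' deposited series table come with no stated processing; by their values they are background-subtracted signal over the array median with a floor of 0.1. Of the table's 45018 rows, 41351 matched spots within 0.01 log2. The scale and centring were found from that match. Spots of a probe were averaged.

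Here log2 signals minus each array's 75th percentile over 43379 non-control spots were used. Of 41174 probes, 22951 were named by accession, 6659 by symbol and 3096 by synonym through RefSeq (GRCm38.p6), and 8468 stayed unnamed. The brightest probe stood for a gene. The arrays' build is not given in the sources used here, so RefSeq served for names and gene order, and coordinates are printed only for its promoter windows.

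limma 3.58.1 (R 4.3.3) fitted line within medium plus medium by day to all 12 arrays (4 residual and 2.94 prior degrees of freedom). Replicate numbers in FBS are the days, so the line difference is the mean of 3 day pairs, blocked by day. P-values from eBayes were adjusted over 15396 genes (Benjamini-Hochberg, threshold 0.05). On simulated data for the FBS line difference (15386 genes), 38% of genes changed by 1 (log2) were recovered, 84% by 2, 92% by 3 and 100% by 4, with 11 false calls. Tables were made in Python 3.11.15 with pandas 2.3.3 and figures with matplotlib 3.10.9.

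Genes named were up to 12 called genes per direction with 1 sign on all days, no clone names and all 3 arrays of a line above background; up to 4 called members per list; Nanog, Pou5f1, Dazl, Dppa3 and the 3 Tet genes; and members of runs. Others are marked as named after their values were seen. The comparison and the 30 gene lists were chosen with earlier results of these data known. Nothing says that arrays of a line came from separate cultures. The number of arrays limits the precision. Sex-linked genes were not analysed here.

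The settings tried were normexp (offset 50), quantile normalization, the authors' deposited table, no filter on dim genes, a strict filter (above background on all 6 FBS arrays), every probe on its own, no day block, the FBS arrays alone, a variance trend, the fibroblast level as a covariate, a block for the slide, the day 0 pair alone and leaving out each FBS array. Normexp with backgrounds above 10 times the array median repaired was chosen after seeing the data.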

Additional observations from a re-analysis of the deposited data

How the results depend on the processing

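Each day has 1 array per line, so leaving out either array removes that pair and gives the same values. Counts of called genes over these fits ran from 19 to 245 for the FBS difference, from 18 to 141 for those of at least 2-fold, from 24 to 135 for the serum-free difference and from 0 to 1 for the interaction. Without the day 0, day 3 or day 10 pair, 94, 15 and 16 of the 168 genes were still called; their signs could not turn, since all 168 had 1 sign on the 3 days. Main counts were 168, 118, 56 and 0.

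The FBS count moved to 318 with all probes tested separately, 1095 with the fibroblast covariate, 29 without a filter, 11 with no replicate block (the day left out), 0 with normexp, 0 with only the FBS arrays, 462 with a variance trend and 505 with repaired normexp (chosen after seeing the data). Of these settings, the 2-fold count moved to 230 with all probes, 329 with the covariate, 29 without a filter, 11 with no replicate block, 0 with normexp, 0 with only the FBS arrays and 192 with a variance trend. The serum-free count moved to 126 (all probes), 146 (covariate), 28 (no filter), 11 (no replicate block), 0 (normexp), 194 (repaired normexp), 0 (slide as a block), 200 (variance trend) and 103 (above background on all FBS arrays). The interaction called 1 gene, Mesp2, with the slide as a block, and 1, Sla, without the day 0 pair. Normexp read 10 spots of the day 0 Dazl-GFP array whose local background exceeded 10 times its median; at unadjusted p under 0.05 it had 1408 genes. Higher genes were 45.8% of the FBS calls, 28.9% with repaired normexp, 35.9% with a variance trend, 36.3% with the covariate, 35.7% with the strict filter, 41.2% with quantile normalization, 46.5% with the authors' table, 47.1% with the slide as a block, 51.7% without a filter, 53.5% with all probes, 54.5% with no replicate block, and 54.7%, 42.1% and 65% without the day 0, day 3 or day 10 pair; the causes were not tested.

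Of the 168 genes, 154 kept their sign with normexp and 166 with repaired normexp. Single genes were followed over the settings only where the naming rule chose them, 49 in all. Among these, signs reversed for Tmem45a2 (0.27), Npy (0.26), Tenm2 (0.58) and Tet3 (0.058) with normexp. They also did for Dppa3 with the slide as a block or the day 0 pair alone (-0.24) and without the day 10 pair, in a range over left-out pairs of -0.10 to 0.60. Pou5f1 reversed with the slide as a block or the day 0 pair alone (-0.54) and without the day 3 pair, in a range of -0.035 to 0.77. The chromosome 14 median moved beyond the SD of its day values only with normexp, to -0.16. That of the 19 neighbours on chromosome 12 was -0.89 with all probes, -0.81 with the authors' table, -0.77 with normexp, -0.77 with repaired normexp, -0.81 with quantile normalization and -0.88 to -0.82 over the left-out pairs. With normexp the median over all genes tested was 0.11 in place of -0.02. The gene list medians kept within their day SD in 507 of 570 values.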

Other observations

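Further genes called in the FBS comparison fall outside the naming rule and the lists, and they are given here as chosen after their values were seen. Cdk6 and Ccnd2, a kinase and a cyclin of the G1 phase that act together, were both lower in Dazl-GFP. Ccnd2 stood at 1.73, 1.56 and -0.08 in Dazl-GFP at days 0, 3 and 10 and at 2.68, 2.53 and 1.20 in Stella-GFP, a difference of -1.07 ± 0.14 (SE; limma adjusted p = 0.0331), and its other probes gave -0.74 and -0.74. Cdk6 differed by -1.29 (limma adjusted p = 0.0284), but its other probes gave -0.28 and -0.28, and its difference in serum-free medium was -0.15. Irs1, the insulin receptor substrate, was lower by -1.30 in FBS and by -1.24 in serum-free medium. Its other probe gave -0.605 in FBS and did not pass (limma adjusted p = 0.443 among all probes). Fgf15, a secreted fibroblast growth factor, stood at -0.51, -2.09 and -3.35 against 1.29, -0.82 and -0.85, lower by -1.86 ± 0.22 (SE; limma adjusted p = 0.0284) and by -1.90 in serum-free medium (adjusted p = 0.0303).

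Further decreases were Thbs4 at -1.77, Reln at -1.18, Adamts1 at -1.15, Mfap4 at -1.12 and Comp at -1.01, which encode secreted proteins. Other probes gave -1.07 for Thbs4 and -0.91 for Adamts1 and did not pass (limma adjusted p = 0.0727 and 0.056 among all probes). The summed level of the feeder fibroblast markers was 88.0, 109 and 81.7 in Dazl-GFP against 94.9, 176 and 116 in Stella-GFP. All 5 genes stayed called with the fibroblast level as a covariate, in a fit that called 1095 genes. All 168 genes stayed called in that fit, so it does not set these 5 apart. A part of feeder cells in the differences of the 5 genes was not tested. In serum-free medium the 5 genes differed by -1.33, -0.90, -0.33, -1.09 and -0.91. Among the increases, Foxj1, the transcription factor of motile cilia, was higher by 1.20 and the axonemal gene Cfap74 by 1.35, the latter above background on 1 of 3 Stella-GFP arrays. Dnali1, another axonemal gene, was above background on no Stella-GFP array and at least 1.41-fold higher, and it entered the test only through Dazl-GFP. In serum-free medium Foxj1, Cfap74 and Dnali1 differed by 0.73, 0.77 and 0.18, and none passed (limma adjusted p = 0.175, 0.111 and 0.769). For Foxj1 the FBS arrays of the lines overlapped across days. No list of cilia genes was examined. Hormad2, a protein of meiotic chromosome axes, stood at -2.37, -2.66 and -0.76 against -4.26, -4.34 and -3.01, a difference of 1.94 ± 0.19 (SE; limma adjusted p = 0.0149) and of 2.06 in serum-free medium (adjusted p = 0.0107). Myo7a, an unconventional myosin of hair cells, was higher by 1.92 and 2.15 in the 2 media, and Niban1, a stress-response gene, by 1.93 and 1.42. The Myo7a probe was above background on 2 of the 3 Stella-GFP arrays in FBS. No group of these genes was tested as a set.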
